A study of Mus musculus with 6 samples.

Results

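The genes described here are the Wnt ligands, their receptors, secreted inhibitors and targets, in lung endothelial cells of control mouse pups and of pups with an inducible endothelial deletion of Smad4. They are 51 of the 24951 genes in the deposited counts. They were picked by gene name, with earlier results of these data known. The 51 are 19 Wnt ligands, 10 Frizzled receptors, 4 Sfrp inhibitors and 18 further genes taken singly, which are Wif1, Dkk1, Dkk3, Notum, Lrp5, Lrp6, Axin2, Lef1, Tcf7, Nkd1, Apcdd1, Lgr4, Lgr5, Lgr6 and Rspo1 to Rspo4. Polyadenylated RNA was sequenced from lung cells captured on beads with an antibody to CD31, an endothelial surface protein, from pups at postnatal day 5. The comparison was of 3 mutant with 3 control libraries. Mutant pups, labelled Smad4 iECKO mutant, were Smad4 f/f;Cdh5-CreERT2, so that both Smad4 alleles were floxed and a tamoxifen-inducible Cre was made under the Cdh5 promoter, which is active in endothelial cells. Control pups, labelled Wildtype, were Smad4 f/f without Cre. All 6 libraries therefore carried the floxed alleles, and no group had Cre with intact Smad4. Neither dose nor day of tamoxifen is in the labels. The labels speak of independent biological samples, in a sentence where the mice are called HHTf/f and HHTiECKO without explanation. The column names of all 6 libraries carry a common tag, lit14, whose meaning is not given, and whether the pups were of 1 litter is not known here.

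Wnt proteins are secreted lipid-modified ligands that bind Frizzled receptors together with the co-receptors Lrp5 and Lrp6. Binding stabilises beta-catenin, which enters the nucleus and, with factors such as Lef1 and Tcf7, switches on targets that include the feedback inhibitors Axin2, Nkd1, Notum and Apcdd1. Wif1 and the Sfrp proteins bind Wnt ligands outside the cell, Dkk1 blocks Lrp5 and Lrp6, and R-spondins, through Lgr4, Lgr5 and Lgr6, raise the amount of Frizzled at the surface. In the developing lung, epithelium and mesenchyme are known sources of Wnt ligands, and in endothelium the pathway is best known for barrier formation in brain and retina through Fzd4.

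Reads assigned to genes came to 14093564 to 21113926 per library. Smad4 itself, the targeted gene, stood at 188, 177 and 181 CPM (reads per gene scaled to the TMM-adjusted library size) in control replicates 1, 2 and 3, and at 88.8, 72.9 and 94.2 CPM in the mutants, 2.13-fold lower (edgeR, adjusted p = 0.000604). Library values are given in the order of the replicate numbers throughout, controls first. The summed level of 10 endothelial markers was 8765 to 9739 CPM in the controls and 9192 to 9524 CPM in the mutants, with Cdh5 and Pecam1 the largest parts of the sum and none at 0. Of the 10, 7 had log2 fold changes above 0 and 3 below, and groups did not overlap in 5 (50%), against 20.6% of all tested genes. Tek was called lower, at 747, 749 and 799 CPM in the controls against 541, 497 and 588 CPM in the mutants (edgeR, adjusted p = 0.0128). DESeq2 and limma-voom also called Tek, and the edgeR call ended without control replicate 3 or mutant replicate 2. RNA of other cells was present in every library. Summed markers reached 1880 to 4006 CPM for alveolar type 2 cells, 1682 to 2853 CPM for alveolar type 1 cells and 1163 to 1723 CPM for fibroblasts in controls, against 2687 to 2900, 1784 to 2261 and 1369 to 2019 CPM in mutants, and none of these markers was at 0. Of the 9, 7 and 10 markers of these lists, edgeR called 0, with 0, 1 and 0 at an unadjusted p under 0.05, and DESeq2 and limma-voom called 0. Without control replicate 3, edgeR called 3 of the type 2 markers. In such bulk samples, fewer cells of a type and less RNA per cell cannot be told apart.

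In the mutant libraries the secreted Wnt inhibitors Wif1 and Sfrp2 and the co-receptor Lrp6 were lower and the receptor Fzd9 was higher, while the Wnt ligands, the more abundant Frizzled receptors and the targets Axin2, Nkd1, Tcf7, Lef1 and Apcdd1 gave no call. Wif1 was 3.21-fold lower, Sfrp2 2.05-fold lower and Lrp6 1.30-fold lower, and Fzd9, at a low level, was 2.65-fold higher. Of the 51 genes, 41 passed the filter on low counts, and 4 of these were called at an adjusted p under 0.05 (edgeR quasi-likelihood test, Benjamini-Hochberg over 14934 genes), 3 lower and 1 higher. That share of 9.76% stands beside 3.27% of all tested genes, with 1.34% lower and 1.93% higher, and the difference in share was not tested. Because the members were chosen with earlier results of these data known, no conclusion is drawn from it. Groups did not overlap in 10 of the 41 genes (24.4%), against 20.6% of all tested genes, and the median log2 fold change was 0.03, against -0.00 for all tested genes. Of these 4 calls, that of Wif1 was kept in all 6 fits that left out a library. The call of Sfrp2 ended when either of control replicates 2 and 3 or either of mutant replicates 1 and 2 was absent, and the calls of Lrp6 and Fzd9 ended in each of the 6 fits. Among the 41 genes, the mutant library nearest to the control mean was replicate 3 for 16, replicate 1 for 14 and replicate 2 for 11, against 41.5%, 35.3% and 23.2% of all tested genes.

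**Figure D1:**
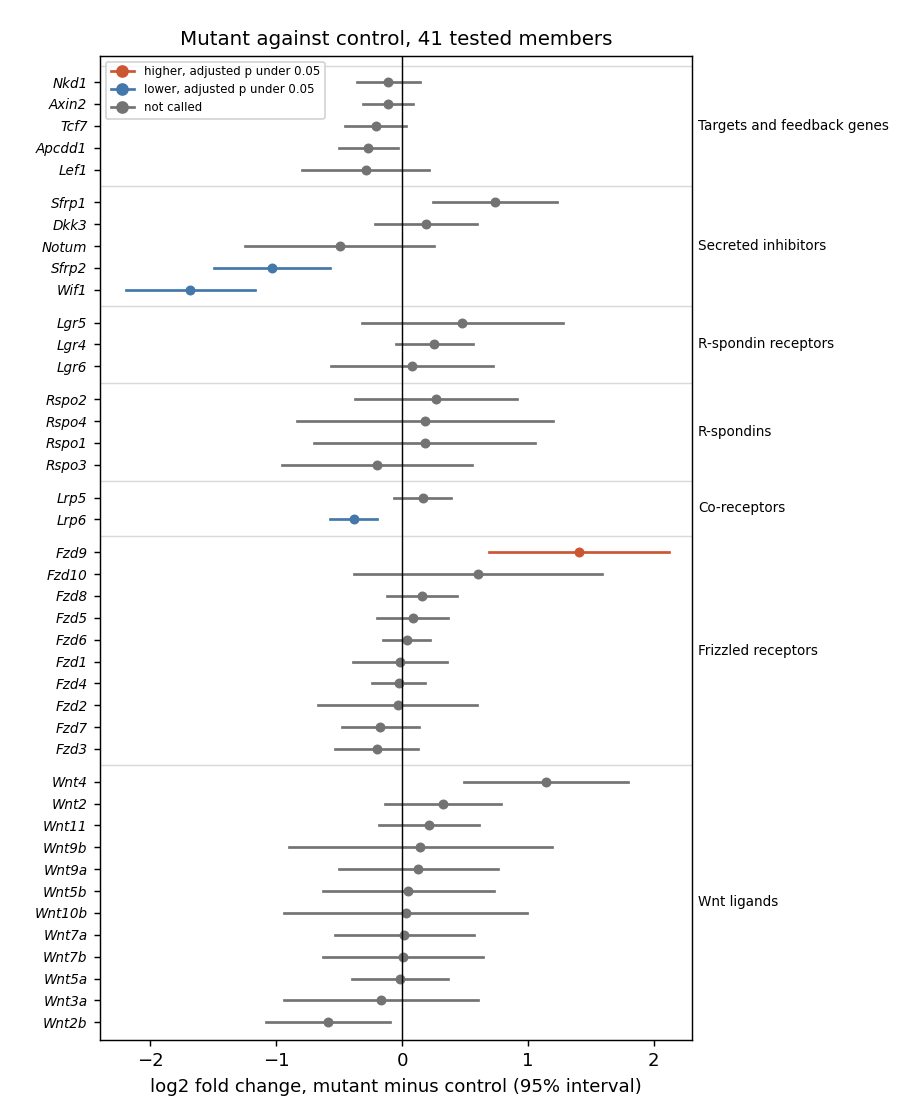
Log2 fold change of mutant against control (horizontal axis) for the 41 tested members, grouped by role, with points for the edgeR estimate and lines for its 95% interval from 3 libraries per group. Wif1 at -1.68, Sfrp2 at -1.03 and Lrp6 at -0.38 are drawn as lower and Fzd9 at 1.41 as higher.

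Wif1 (Wnt inhibitory factor, ENSMUSG00000020218.11) lies on chromosome 10 of GRCm38 from 121033960 to 121100650, plus strand. Sfrp2 (secreted frizzled-related protein, ENSMUSG00000027996.13) lies on chromosome 3 from 83766321 to 83774316, plus strand. The sequences just before their starts are shown because these are the inhibitors that were lower, in libraries with less Smad4 RNA. They are RefSeq promoter sequence of GRCm38.p6, plus strand, chr10:121033754-121033959 for Wif1 and chr3:83766071-83766320 for Sfrp2, that is the 250 bases before the RefSeq start without the 44 bases of Wif1 that the GENCODE gene model already counts as transcribed. Capitals mark letters of 3 searched motifs, on either strand: CAGAC and GGCGCC, known as SMAD-binding letters, and CTTTGAT or CTTTGAA, known for TCF/LEF factors. No searched motif contains another.
Wif1: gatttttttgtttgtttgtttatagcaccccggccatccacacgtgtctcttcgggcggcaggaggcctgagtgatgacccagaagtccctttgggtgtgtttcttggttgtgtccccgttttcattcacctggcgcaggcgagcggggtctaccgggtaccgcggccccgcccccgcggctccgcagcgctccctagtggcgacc
Sfrp2: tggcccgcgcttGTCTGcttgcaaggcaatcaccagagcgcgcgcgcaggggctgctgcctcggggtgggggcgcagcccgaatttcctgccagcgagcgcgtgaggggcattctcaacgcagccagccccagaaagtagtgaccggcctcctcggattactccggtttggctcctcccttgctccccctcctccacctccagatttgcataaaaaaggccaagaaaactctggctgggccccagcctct
The Sfrp2 window held 1 copy of CAGAC, on the minus strand, and the full Wif1 window of 250 bases held none of the letters searched. CAGAC occurred in 42.2% of all 32851 promoter windows of 250 bases, GGCGCC in 9.59% and the TCF/LEF letters in 7.48%. Promoters matched for 33 of the 51 genes, with 40 windows, since some genes had more than 1. Of the 40 windows, 17 held CAGAC, 14 GGCGCC and 3 the TCF/LEF letters. Counted by gene, these were 14, 12 and 3 of the 33. GGCGCC is made of G and C only, and the G and C content of the windows was not taken into account. Differences in share were not tested, and no conclusion is drawn from them. Such a match describes letters in a window and not a bound site.

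Among the secreted inhibitors Wif1 had the highest level per length of exon, in controls (66.4 CPM per kb, against 11.4 for Dkk3) and in mutants (20.6 against 13.0). It stood at 119, 183 and 182 CPM in the controls and at 45.2, 41.6 and 63.4 CPM in the mutants. The groups were far apart, with the lowest control library well above the highest mutant library. The control mean was 161 ± 36.8 CPM and the mutant mean 50.1 ± 11.7 CPM (SD, n = 3 each), which edgeR fitted as a log2 fold change of -1.68 (SE 0.22, adjusted p = 0.00771). Under the 12 alternative settings its log2 fold change ran from -1.89 to -1.57 and its adjusted p reached at most 0.0483. Markers of general capillary cells, the stem-like capillary cells of the alveolus, were also lower in sum, but not all in 1 direction. Their summed level over 10 genes was 9122 to 9615 CPM in the controls and 5732 to 6709 CPM in the mutants. Of the 10, 7 had a log2 fold change below 0 and 3 above, with 4 called lower and 1 higher and none at 0. The largest parts of the sum over all 6 libraries were the sodium channel gene Scn7a, at 2250, 2664 and 2488 against 992, 664 and 1013 CPM, and Cd93, at 1769, 1656 and 1922 against 1580, 1366 and 1542 CPM, which was not called. Sums of other endothelial lists also shifted: summed arterial markers were 1135 to 1248 CPM in the controls against 902 to 1098 CPM in the mutants (2 of 6 called lower, 1 higher). Aerocyte markers summed to 1671 to 1860 against 1978 to 2288 CPM (2 of 7 lower, 1 higher) and lymphatic markers to 1123 to 1377 against 1484 to 1532 CPM (1 of 5 tested higher, with Ccl21a at 0). Yet 5 of the 7 aerocyte markers and 3 of the 5 tested lymphatic markers had log2 fold changes below 0. The markers called higher were Apln, from a mean of 212 to 687 CPM, and Lyve1, from 713 to 968 CPM. A rise in these 2 sums is therefore not a rise of the list as a whole. The part of these cells in the level of Wif1 was not tested.

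Sfrp2, which binds Wnt ligands through a domain like that of the Frizzled receptors, was at 6.16, 5.77 and 6.56 CPM in the controls and at 2.42, 3.14 and 3.46 CPM in the mutants. Every mutant library was below every control library. In edgeR the log2 fold change was -1.03 (SE 0.21, adjusted p = 0.0223), and over the 12 alternatives the adjusted p ran from 0.00236 to 0.0981. An antisense gene model shares 347 exonic bases with Sfrp2 and is not among the counted genes, and the strand setting of the counting is not given in the sources used here. Fibroblast markers, whose cells are a known source of Sfrp proteins, overlapped between groups in their sum, as given above. The part of fibroblasts in the level of Sfrp2 was not tested.

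The other inhibitors gave no call. Sfrp1, a relative of Sfrp2, had 5.04, 5.55 and 4.53 CPM in the controls and 9.06, 10.2 and 5.95 CPM in the mutants. The groups did not overlap, but mutant replicate 3 was close to the controls, and edgeR did not call it (log2 fold change 0.74, SE 0.22, adjusted p = 0.133). Without mutant replicate 3 it was called, with a log2 fold change of 0.94 (adjusted p = 0.0339, against 0.0339 to 0.494 over all alternatives). Dkk3, a Dickkopf relative whose action on Wnt signaling is less clear, stood at 38.4 ± 7.69 and 43.7 ± 8.24 CPM (SD, n = 3 each). Notum, the enzyme that removes the lipid from Wnt ligands, stood at 2.17 ± 0.751 and 1.56 ± 0.489 CPM, a log2 fold change of -0.50 with a 95% interval of -1.25 to 0.26. Dkk1, Sfrp4 and Sfrp5 had 11, 15 and 1 counts over all 6 libraries and were not tested. Per kb of exon, the control level of Wif1 was 66.4 ± 15.2 CPM, that of Dkk3 11.4 ± 2.29, of Sfrp2 2.86 ± 0.184, of Sfrp1 1.15 ± 0.117 and of Notum 0.903 ± 0.312 (SD, n = 3 each), and of these neighbours only the control ranges of Sfrp1 and Notum overlapped.

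**Figure D2:**
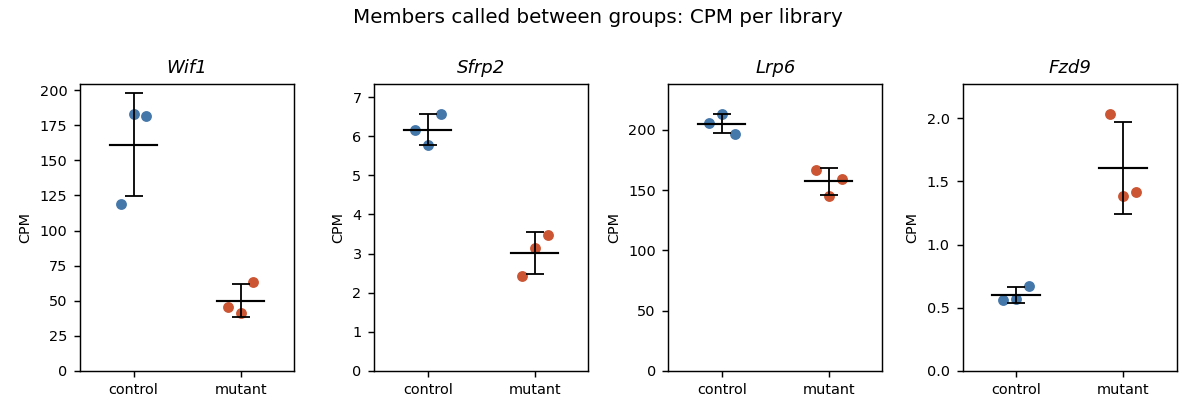
CPM (vertical axis, from 0) of the 4 called members in each control and mutant library, with points for libraries and black lines for the mean and SD of 3. Wif1, Sfrp2 and Lrp6 are lower in all 3 mutant libraries, and Fzd9 is higher, at 1.38 to 2.03 CPM.

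The co-receptors Lrp5 and Lrp6 are close relatives that act side by side, and of the 2 only Lrp6 was called. Lrp6 (ENSMUSG00000030201.15, chromosome 6 from 134446476 to 134566965, minus strand) stood at 206, 213 and 197 CPM in the controls and at 167, 145 and 160 CPM in the mutants. All 3 mutant libraries were below the controls by more than the spread within either group. This gave a log2 fold change of -0.38 (SE 0.08, edgeR, adjusted p = 0.0363). Without a library its adjusted p was 0.0615 to 0.153, with a log2 fold change of -0.43 to -0.33, and with library sex as a covariate it was 0.0612. Lrp5 stood at 272, 229 and 250 CPM in the controls against 260, 314 and 267 CPM in the mutants. Those ranges overlapped, and its log2 fold change of 0.16 had a 95% interval of -0.06 to 0.39. Whether the 2 co-receptors differ in their response was not tested. Per kb of exon, Lrp5 was at 25.7 ± 2.21 and Lrp6 at 15.0 ± 0.586 CPM in controls, and these ranges did not overlap.

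Frizzled receptors bind the ligands, and Fzd4 was the most abundant of them per length. In controls, in CPM per kb of exon, Fzd4 stood at 50.9 ± 4.78, Fzd6 at 25.3 ± 1.58, Fzd1 at 16.1 ± 3.75, Fzd2 at 9.37 ± 3.80, Fzd5 at 8.75 ± 1.41, Fzd7 at 7.43 ± 1.33, Fzd8 at 4.80 ± 0.342, Fzd3 at 1.04 ± 0.0326, Fzd9 at 0.262 ± 0.0279 and Fzd10 at 0.124 ± 0.0697 (SD, n = 3). The control ranges of Fzd1 and Fzd2, of Fzd2 and Fzd5 and of Fzd5 and Fzd7 overlapped, so that the order of Fzd1, Fzd2, Fzd5 and Fzd7 is not fixed by these libraries. Fzd4, the receptor for norrin on retinal vessels, gave 308, 347 and 371 CPM in the controls and 358, 314 and 334 CPM in the mutants. The groups overlapped, with a log2 fold change of -0.03 and a 95% interval of -0.24 to 0.18. Fzd6 was as steady, at 129, 114 and 123 CPM in the controls against 127, 120 and 128 CPM in the mutants, with an interval of -0.15 to 0.22. Fzd2 was at 50.2, 28.8 and 24.1 CPM in the controls and 37.2, 34.5 and 29.0 CPM in the mutants. Control replicate 1, the highest for Fzd2, was also the highest for the alveolar markers, whose part in it was not tested. Fzd1, Fzd5, Fzd7, Fzd8 and Fzd3 had control means of 67.5 ± 15.7, 60.5 ± 9.73, 33.7 ± 6.04, 28.7 ± 2.05 and 13.3 ± 0.418 CPM and mutant means of 66.5 ± 5.24, 64.0 ± 5.72, 29.8 ± 1.64, 32.0 ± 4.33 and 11.6 ± 1.78 CPM (SD, n = 3 each), with overlap between groups for all 5.

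Fzd9 (ENSMUSG00000049551.2, chromosome 5 from 135248938 to 135251230, minus strand) was the Frizzled gene that rose. It was at 0.560, 0.570 and 0.675 CPM in the controls and at 2.03, 1.38 and 1.41 CPM in the mutants, which rest on 12, 8 and 14 reads and on 37, 22 and 29 reads. No mutant library fell within the control range, and edgeR gave a log2 fold change of 1.41 (SE 0.32, adjusted p = 0.0439). DESeq2 and limma-voom did not call it (adjusted p = 0.0819 and 0.0541), and over all 12 alternatives the adjusted p ran from 0.0358 to 0.178. Per length it remained far below Fzd4 in both groups, with 0.702 CPM per kb in mutants. Of the other 9 Frizzled genes 0 were called by edgeR, DESeq2 or limma-voom and 0 had an unadjusted p under 0.05, and their log2 fold changes ran from -0.20 for Fzd3 to 0.60 for Fzd10, a gene with 3 to 14 reads per library.

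**Figure D3:**
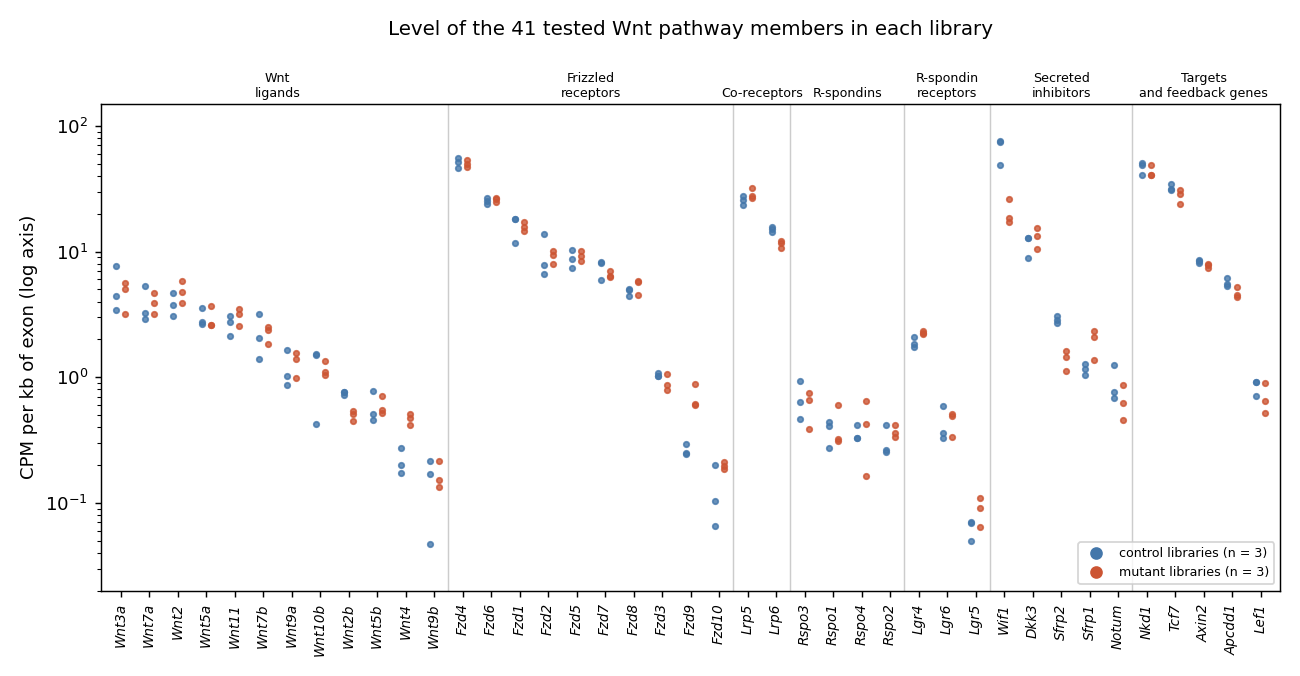
Level of each tested member in CPM per kb of exon (vertical log axis) in the 3 control and 3 mutant libraries, with members ordered within each role by their control mean. In the controls Wif1, Fzd4 and Nkd1 stand highest, at means of 66.4, 50.9 and 46.8 CPM per kb, and in the mutants Wif1 stands at 20.6.

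Of the 19 Wnt ligands, 12 passed the filter and 0 were called by edgeR, DESeq2 or limma-voom, with 2 (16.7%) at an unadjusted p under 0.05, against 14% of all tested genes. Ligands were low per length: Wnt3a stood at 5.17 ± 2.21 CPM per kb in controls, Wnt7a at 3.84 ± 1.32, Wnt2 at 3.83 ± 0.814, Wnt5a at 2.97 ± 0.485, Wnt11 at 2.65 ± 0.467 and Wnt7b at 2.21 ± 0.896 (SD, n = 3), and the control ranges of each neighbouring pair overlapped. Wnt9a and Wnt10b followed at 1.18 ± 0.415 and 1.15 ± 0.629 CPM per kb. The untested ligands were Wnt1, Wnt3, Wnt6, Wnt8a, Wnt8b, Wnt10a and Wnt16, with 0 counts for Wnt8a and 2 to 36 counts over all 6 libraries for the rest. For Wnt8a, 3 counts would have been 0.140 to 0.214 CPM in a library, so a level below that was not detectable at this depth.

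Wnt4 and Wnt2b were the ligands with an unadjusted p under 0.05, Wnt4 with the higher mean in the mutants and Wnt2b with the lower. Wnt4, a ligand known from kidney and female reproductive tract development, was at 0.840, 1.14 and 0.723 CPM in the controls against 1.76, 2.13 and 2.00 CPM in the mutants. Mutant libraries did not overlap the controls, but the difference did not pass (log2 fold change 1.14, SE 0.29, edgeR, adjusted p = 0.0713, 0.0656 to 0.263 over the alternatives). Wnt2b, which acts with Wnt2 in specifying the lung, was at 3.03, 3.2 and 3.18 CPM in the controls and 1.87, 2.13 and 2.24 CPM in the mutants. Its groups did not overlap either, with a log2 fold change of -0.59 (SE 0.22, edgeR, adjusted p = 0.251). Wnt2 itself gave 10.6, 8.40 and 6.94 CPM in the controls against 10.7, 13.2 and 8.73 CPM in the mutants, which overlapped. The non-canonical ligand Wnt11 was at 11.4, 12.7 and 8.87 against 10.7, 14.3 and 13.1 CPM. Wnt5b, Wnt9a, Wnt9b and Wnt10b had control means of 1.54 ± 0.457, 3.94 ± 1.38, 0.655 ± 0.396 and 3.92 ± 2.14 CPM and mutant means of 1.57 ± 0.273, 4.34 ± 0.968, 0.757 ± 0.194 and 3.96 ± 0.576 CPM (SD, n = 3 each). In each of these 5 the groups overlapped and the difference was smaller than the spread between libraries.

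Wnt3a, Wnt7a and Wnt7b spread widely within the controls. Wnt7b, an epithelial ligand of the growing lung, was at 15.5, 10.1 and 6.80 CPM in the controls and 11.5, 12.2 and 8.93 CPM in the mutants. Wnt7a was at 17.0, 10.3 and 9.26 CPM in the controls against 14.8, 12.3 and 10.0 CPM in the mutants, and Wnt3a, the classical activating ligand, at 21.1, 12.3 and 9.40 against 15.5, 14.0 and 8.78 CPM. Control replicate 1 was the highest and control replicate 3 or mutant replicate 3 the lowest library for each of the 3 ligands. Summed alveolar type 1 markers were also highest in control replicate 1, at 2853 CPM, and lowest in control replicate 3 and mutant replicate 3, at 1682 and 1784 CPM, with 2172 in control replicate 2 and 2261 and 2234 in mutant replicates 1 and 2. Wnt5a, a mesenchymal ligand of the lung, was at 27.6, 21.4 and 20.6 CPM in the controls and 20.2, 28.6 and 20.2 CPM in the mutants, and fibroblast markers summed to 1712, 1723 and 1163 and to 1722, 2019 and 1369 CPM. Both were highest in mutant replicate 2. What part epithelial and fibroblast RNA had in these levels was not tested. Antisense gene models share 324 exonic bases with Wnt7b, 358 with Wnt5a and 364 with Wnt11, and for Wnt7b the partner AU022754 is also among the counted genes.

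**Figure D4:**
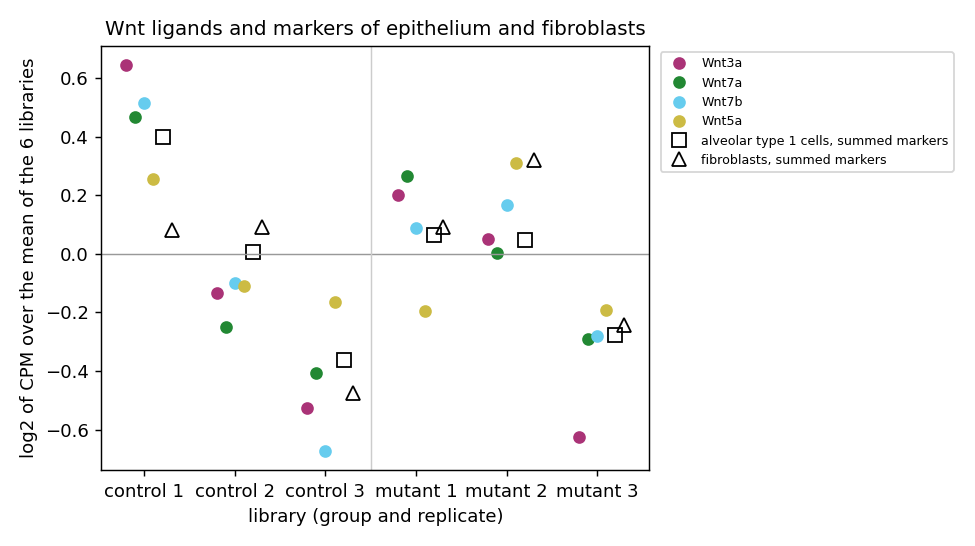
Log2 of CPM over the mean of the 6 libraries (vertical axis) for Wnt3a, Wnt7a, Wnt7b and Wnt5a and for the summed markers of alveolar type 1 cells and fibroblasts, in each control and mutant replicate (points are shifted sideways for legibility). Control replicate 1 is highest for the first 3 ligands and for the type 1 markers.

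R-spondins and their receptors were low, at under 3 CPM in every library except for Lgr4 and Lgr6. Of the 4 R-spondins and 3 receptors, all 7 were tested and 0 were called by edgeR, DESeq2 or limma-voom, with 0 at an unadjusted p under 0.05. Lgr4 was at 10.3, 10.9 and 12.3 CPM in the controls against 13.1, 13.7 and 13.2 CPM in the mutants. The mutant libraries were all above the controls, by little, and the log2 fold change of 0.26 had a 95% interval of -0.05 to 0.56. Lgr5, best known as a stem cell marker of the gut, and Lgr6 stood at 0.650 ± 0.118 and 0.905 ± 0.236 CPM and at 2.93 ± 0.981 and 3.05 ± 0.648 CPM (SD, n = 3 each). Rspo3, an R-spondin that endothelial cells are known to secrete, was at 2.89, 1.42 and 1.98 CPM in the controls and 2.03, 1.19 and 2.29 CPM in the mutants. Its groups overlapped, and its 95% interval of -0.95 to 0.56 is wide. Rspo1, Rspo2 and Rspo4 were at 0.726 ± 0.172, 1.60 ± 0.468 and 0.845 ± 0.117 CPM in the controls against 0.801 ± 0.321, 1.90 ± 0.220 and 0.977 ± 0.574 CPM in the mutants.

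The 5 target and feedback genes had fitted log2 fold changes below 0, from -0.29 to -0.11, and 0 of the 5 were called by edgeR, DESeq2 or limma-voom, with 1 at an unadjusted p under 0.05, against 14% of all tested genes. Axin2, the feedback scaffold of the beta-catenin destruction complex, was at 44.7, 46.4 and 46.8 CPM in the controls and 43.4, 43.5 and 40.7 CPM in the mutants. These groups did not overlap but lay close together, with a log2 fold change of -0.11 and a 95% interval of -0.31 to 0.09. Apcdd1, a membrane inhibitor of Wnt signaling, was at 71.6, 68.0 and 79.3 CPM in the controls against 56.1, 58.1 and 67.6 CPM in the mutants. It was the target with an unadjusted p under 0.05, with no overlap between groups, a log2 fold change of -0.27 and an SE of 0.11 (edgeR, adjusted p = 0.277). Nkd1, which binds Dishevelled, was at 232, 185 and 224 CPM in the controls and 184, 224 and 185 CPM in the mutants, and the groups overlapped.

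Tcf7 and Lef1 encode the nuclear partners of beta-catenin. Tcf7 was at 81.5, 82.0 and 90.8 CPM in the controls against 74.7, 63.1 and 81.8 CPM in the mutants. Its groups met at their edges, with a log2 fold change of -0.21 and a 95% interval of -0.46 to 0.03. Lef1 was at 6.21, 7.98 and 8.05 CPM in the controls and 5.65, 4.52 and 7.90 CPM in the mutants, with an interval of -0.79 to 0.22, and mutant replicate 3 was within the control range. Both genes are also made by T cells. The T cell genes Cd3d, Cd3e and Cd3g overlapped between groups, at 1.4 to 3.13 CPM in the controls and 1.07 to 2.63 CPM in the mutants. The B cell genes Ms4a1, Cd79a and Cd79b were above the controls in every mutant library, Ms4a1 at 49.9, 45.0 and 53.5 against 74.3, 56.7 and 91.2 CPM. All 3 had an unadjusted p under 0.05 and none was called by edgeR (adjusted p = 0.107, 0.0959 and 0.107), while Ms4a1 was called by DESeq2, with the replicate block and without mutant replicate 2. The part of lymphocytes in Tcf7 and Lef1 was not tested.

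**Figure D5:**
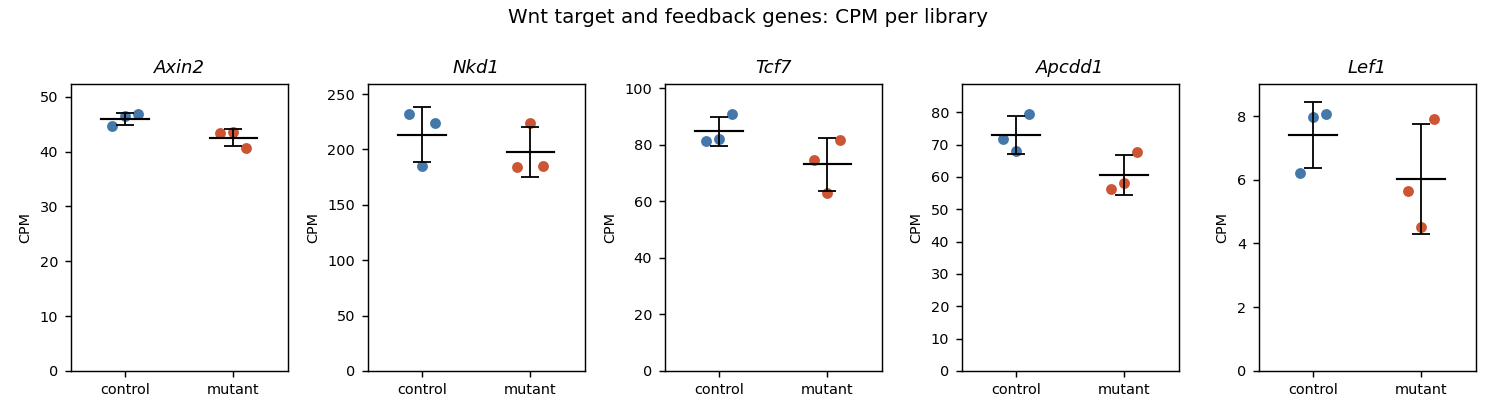
CPM (vertical axis, from 0) of 5 Wnt target and feedback genes in each control and mutant library, with points for libraries and black lines for the mean and SD of 3. The mutant means are slightly lower for all 5, and Nkd1, Tcf7 and Lef1 overlap between groups.

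Outside these 51 genes, 89 further genes of the pathway were examined by lists of their role. Of the 81 tested, 2 rose, 4 fell and 75 did not pass, a share of 7.41% called beside 3.27% of all tested genes. The difference in share was not tested. Because the lists were chosen with earlier results of these data known, no conclusion is drawn from it. Frzb, a secreted Frizzled-related inhibitor, rose from 0.467, 1.14 and 0.386 CPM to 4.28, 5.46 and 3.32 CPM. All mutant libraries were above the controls, on 68 to 87 reads against 8 to 16, and edgeR called it (log2 fold change 2.78, SE 0.39, adjusted p = 0.00378), as did all 12 alternatives. Sost, a blocker of Lrp5 and Lrp6, was at 2.15, 0.926 and 2.84 CPM in the controls and 0.110, 0.126 and 0.732 CPM in the mutants. The mutant values rest on 2, 2 and 15 reads, and the difference did not pass (edgeR, adjusted p = 0.0843), and DESeq2 called it (adjusted p = 0.00677, 0.00677 to 0.332 over the alternatives).

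In the list of other receptors and planar cell polarity, the branch of Frizzled signaling that orients cells, 3 of 15 tested genes fell. That share of 20% stands beside 1.34% of all tested genes called lower, and the difference in share was not tested. Groups did not overlap in 20% of the list, against 20.6% of all tested genes. Because the list was chosen with earlier results of these data known, no conclusion about this branch is drawn. Celsr2, an atypical cadherin of that branch, went from 84.8, 95.7 and 103 CPM to 50.6, 47.9 and 59.1 CPM. Prickle2 went from 208, 275 and 258 CPM to 144, 114 and 149 CPM, and Prickle1 from 144, 144 and 159 CPM to 101, 102 and 109 CPM. No mutant library reached a control library in any of the 3, and their log2 fold changes were -0.85, -0.86 and -0.52 with SEs of 0.11, 0.13 and 0.08 (edgeR, adjusted p = 0.00279, 0.00763 and 0.00764). The calls of all 3 were kept in each of the 12 alternatives. The other 12 did not pass.

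In the cytoplasm and nucleus little passed the test. Of 17 tested genes of the destruction complex and Dishevelled and 18 of the nuclear complex of beta-catenin, 0 were called by edgeR, DESeq2 or limma-voom. An unadjusted p under 0.05 was found in 0 (0%) and 2 (11.1%), against 14% of all tested genes. Groups did not overlap in 23.5% and 27.8% of these 2 lists, against 20.6% of all tested genes. Dvl3 and Axin1 had the smallest p of the former list, with log2 fold changes of -0.22 and 0.15, and Ctnnbip1, an inhibitor of beta-catenin, and Bcl9l, a co-activator, of the latter, with 0.44 and -0.25. Wls, the carrier that brings Wnt ligands to the surface, was at 247, 216 and 221 CPM in the controls against 208, 169 and 191 CPM in the mutants. It did not pass (edgeR, adjusted p = 0.237), nor did Gpc4 (0.436) of the 6 genes of Wnt secretion, the norrin co-receptor Tspan12 (0.278), norrin itself, Ndp (0.515), or the ubiquitin ligases Znrf3 (0.399) and Rnf43 (0.750). Of 10 tested further targets, Nrarp rose from 109, 121 and 121 CPM to 207, 187 and 157 CPM (log2 fold change 0.65, edgeR, adjusted p = 0.00885), a call that ended without mutant replicate 2 (0.0584). Sox17 fell from 215, 226 and 223 CPM to 181, 170 and 175 CPM (log2 fold change -0.34, edgeR, adjusted p = 0.0426), with the call ended in each fit without a library (0.0658 to 0.160) and with library sex as a covariate (0.0874). Nrarp is also a Notch target and Sox17 also an arterial transcription factor gene, and antisense gene models share 2051 exonic bases with Nrarp and 804 with Sox17.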

How the data were processed

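Raw counts of reads per gene symbol were deposited by the authors in 2 forms, for single libraries and for the series, with 0 differing values. Per the submitters' processing notes the build was mm10 and DESeq2 was used, with no version. No source used here gives the aligner, counter, annotation or strand setting. Reads with no feature (53.9% to 58.2% of a library) and ambiguous reads (0.288% to 0.366%) were left out. For control replicate 2 the exact 95% binomial interval (Clopper-Pearson) of that first share was 58.19% to 58.22%, which, like the 3-count floor, covers counting error only. Groups came from the sample titles.

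Genes passing filterByExpr (14934) were scaled by TMM and tested two-sided, mutant against control without covariates, by the robust quasi-likelihood test of edgeR 4.0.16 in R 4.3.3, with Benjamini-Hochberg adjustment over all of them and calls at an adjusted p under 0.05. The SE is the log2 fold change over the square root of F, and intervals use the degrees of freedom of that test. The 12 alternatives were DESeq2 1.42.0, limma-voom (limma 3.58.1), upper-quartile factors, no filter, a replicate block, library sex (from Xist and Y-linked genes) and leaving out each of the 6 libraries. Exon lengths and positions are those of GENCODE M21 (GRCm38, the assembly of mm10), matched by symbol for all 51 members, and may differ from the annotation that was counted. On simulated libraries of this design (14826 genes) edgeR found 29.9% of 1.5-fold and 79.1% of 2-fold changes and made 17 false calls. Replicates differed by more than sampling noise (lowest chi-square per degree of freedom 12.3), which cannot show whether they came from separate animals. Each library was treated as its own sample because the labels speak of independent biological samples.

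The rule for named genes allowed every member, Smad4, called genes of the further pathway lists (at most 4 a list, or the 2 with the smallest p where fewer than 2 were called) and the 2 most abundant markers of a cell type. The 6 T and B cell genes named singly were chosen after their values were seen, and the sum of their list is not reported here. The members and lists were chosen with earlier results of these data known. Each p-value sets the difference between the groups against the spread between these libraries only, a spread estimated with information shared over genes.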

Additional observations from a re-analysis of the deposited data

How the results depend on the processing

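With 3 libraries a group, changes can be missed, also at 2-fold and above. On the simulated libraries edgeR found 29.9% of 1.5-fold, 79.1% of 2-fold and 93.9% of 4-fold changes. Genes with few reads, Fzd9 among them, are measured with wide error. The direction and call of Wif1, Frzb, Celsr2, Prickle1 and Prickle2, and of Smad4, were kept in all 12 alternatives. Of the values followed gene by gene, 615 kept direction and side of the threshold, 31 lost their call, 4 gained it and 46 changed sign, the last all among genes not called. Genes called over the whole table came to 754 with DESeq2 and to 211 to 428 without a library (293, 325 and 211 without control replicate 2, control replicate 3 and mutant replicate 2), against 488. Members called higher came to 0 with DESeq2, limma-voom, the replicate block and library sex, and to 0 to 1 without a library. The 1 was Sfrp1, without mutant replicate 3. Members called lower came to 1 to 2 without a library, and it was 1 (Wif1) without control replicate 2 or 3 and without mutant replicate 1 or 2. Other pathway genes called higher came to 1 to 3 and those called lower to 3 to 4 without a library, the 1 being Frzb, without mutant replicate 2. The cause was not tested.

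Same-numbered libraries deviated from their group means with correlations of -0.0096, 0.019 and 0.156. Control replicates 2 and 3 correlated best with the mutant of their own number, and control replicate 1 with mutant replicate 2 (0.119). Whether the numbers pair the samples cannot be told from these values. With the replicate block 466 genes were called, the calls of Lrp6 (adjusted p = 0.0744), Fzd9 (0.0717) and Sox17 (0.108) ended and Sost was called (0.00952).

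Signs of log2 fold changes near 0 turned for Wnt7a (-0.0035) and Wnt7b (-0.014) with upper-quartile factors, for Fzd1 (0.011), Fzd2 (0.014) and Rspo4 (-0.025) with limma-voom, for Fzd1 (0.0055) and Fzd2 (0.027) with the replicate block and for Fzd2 (0.028) with library sex. Without a library the log2 fold change ranged as follows for genes whose sign turned: Wnt10b -0.38 to 0.32, Wnt3a -0.40 to 0.24, Wnt5a -0.20 to 0.13, Wnt5b -0.10 to 0.29, Wnt7a -0.15 to 0.34, Wnt7b -0.25 to 0.37, Wnt9a -0.062 to 0.46, Wnt9b -0.20 to 0.52, Fzd1 -0.20 to 0.088, Fzd2 -0.24 to 0.35, Fzd4 -0.10 to 0.034, Fzd5 -0.03 to 0.21, Fzd6 -0.010 to 0.080, Lgr6 -0.076 to 0.36, Rspo1 -0.22 to 0.34, Rspo3 -0.39 to 0.11 and Rspo4 -0.33 to 0.59. The cause was not tested.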
